A study of Mus musculus with 4 samples.

Results

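Skeletal muscle genes were read out in the skin of BLM-treated mice, as a set of 44 genes for the contractile apparatus, calcium handling, energy supply, myogenic regulation and muscle protein turnover. The members were the rows of the deposited gene table that carry 1 of the listed symbols, and all 44 were found among its 24441 rows. Within the set, 13 genes are isoforms typical of fast fibres, 9 are isoforms typical of slow fibres, and 22 belong to neither list.

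RNA-seq was done on skin lesions from WT mice and GSDMD KO mice, with 2 libraries in each group. All 4 libraries came from female C57BL/6 mice, labelled 8 weeks of age, and all mice had received bleomycin (BLM) under the skin every other day up to day 28. BLM is a cytotoxic antibiotic that causes skin fibrosis at the place of injection, and GSDMD is the pore-forming protein that carries out pyroptosis. The KO line was made by injecting Cas9 and guide RNA into fertilised eggs, so the deletion is not limited to a cell type. No saline-treated library was analysed here, so every difference below is between genotypes under BLM.

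Striated muscle in mouse skin forms a thin sheet under the dermis, the panniculus carnosus, which is built mostly of fast fibres. Myosin thick filaments pull on actin thin filaments when calcium, released from the sarcoplasmic reticulum, binds troponin. Fast and slow fibres use different genes for the same parts of this machine, so the balance of paired isoforms differs between fibre types where both genes are made in muscle only.

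The deposited values are FPKM, fragment counts scaled to transcript length and library depth, and each library summed to between 448544 and 462252 FPKM. Depth was estimated from the step that 1 fragment makes in low genes, as 0.0574 to 0.0786 FPKM for a transcript of 1 kb, and 3 fragments on a transcript of 1 kb would stand at 0.172 to 0.236 FPKM. Gsdmd itself (chromosome 15, 75692769 to 75697834, mm9) gave 14.0 and 18.2 FPKM in WT skin, against 3.53 and 2.26 FPKM in KO skin, with no overlap between the groups. Its log2 difference on log2(FPKM + 1), the scale of all differences below, was -2.14 ± 0.29 (SE), and its adjusted p was 0.248 (limma with Benjamini-Hochberg adjustment). KO replicate 2 stood apart in markers of other skin cells. Its summed fibroblast markers were 30.1 FPKM against 183 to 437 in the other libraries, and its summed endothelial markers were 16.7 FPKM against 89.8 to 139.8. It also held 4 of 15 Y-linked genes above 0, at 1.78 FPKM in sum, although every mouse is labelled female. The other libraries held 0.

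Muscle genes made up a large part of the RNA in each library. Summed over the 44 members, WT libraries held 50043 and 44977 FPKM and KO libraries held 30528 and 30992 FPKM. These sums were 11.0% and 9.73% of all FPKM in WT and 6.81% and 6.88% in KO, so the groups did not overlap, and the smallest p that an exact two-sided permutation test over these libraries can give is 0.333. Among the 20 most abundant genes of a library, 13 and 11 were members in WT, and 7 and 8 in KO. Acta1, skeletal muscle actin, was the most abundant gene of all in WT skin and in KO replicate 1, whereas in KO replicate 2 that place was held by the epidermal galectin gene Lgals7. In bulk tissue, fewer muscle cells and less RNA per muscle cell cannot be told apart.

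Most members were lower in KO. Of the 43 members that reached 1 FPKM or more in at least 2 libraries, 37 had a negative fitted difference, as did 41.4% of all genes tested, and 6 a positive difference, with a median of -0.68 against 0.11 over all 13027 genes tested. None passed an adjusted p under 0.05 with an absolute log2 difference above 1, which 0% of all genes did, and the members' adjusted p ran from 0.248 to 0.987 (limma, Benjamini-Hochberg). At an unadjusted p under 0.05 (limma), 13 members were lower and 0 were higher. Of all 13027 genes tested, 2230 had such a p, with both directions counted together. With the same limit on fold as well, 9 members were lower, against 4.14% of all genes tested, and 0 were higher, against 6.16%. The KO values were both under the WT values in 29 members, against 20.5% of all genes, and above them in 2 members, against 35.3%.

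The count of 9 depended on single libraries. Without WT replicate 1, a fit with a lone WT library, only Myog (-0.81) of the 9 came inside the fold limit. The others kept differences of -1.53 (Ryr1) to -1.02 (Casq1). Fewer members passed both limits in that fit, more did without KO replicate 1, and the counts over all genes moved too. Without KO replicate 1, which leaves a lone KO library whose spread is taken from the WT group, 16 members and 1920 genes in all passed the adjusted threshold. Without KO replicate 2, Myl3 alone among the members passed it, as did 31 genes in all. Under median-ratio scaling, which brings the median over all genes to 0.01, 12 members were lower at the unadjusted threshold, against 707 of 13003 genes. The members' median was then -0.80.

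**Figure D1:**
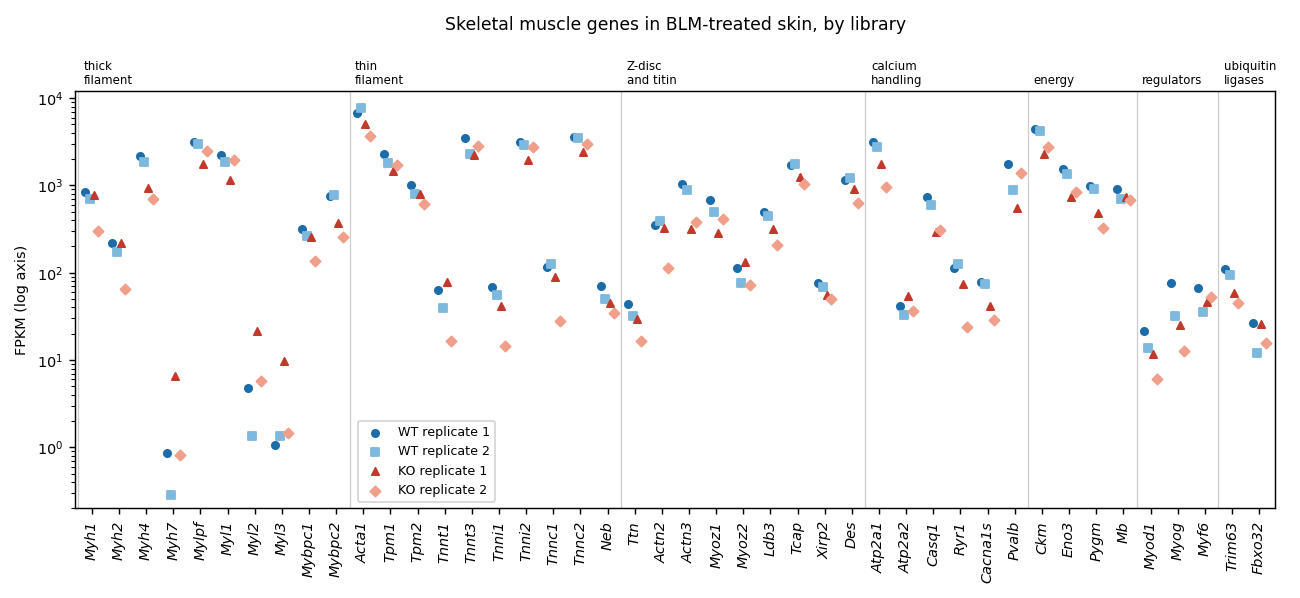
FPKM of the 44 members on a log axis, grouped by role, with 1 point per library (WT in blue, KO in red). The KO points lie below the WT points in most members, while Myl2 and Myl3 sit near the bottom of the scale with both KO points on top.

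The 9 members past the unadjusted limits were Actn3, Atp2a1, Cacna1s, Casq1, Mybpc2, Myh4, Myog, Pygm and Ryr1. To show what lies upstream of such genes, the 250 bases before the annotated start are printed for a contractile, a calcium, an energy and a regulatory gene among them, chosen after their values were seen. The sequences are RefSeq's, on GRCm38.p6 and on the strand of the gene, at chr11:67237562-67237811 for Myh4 (plus strand), chr1:172219896-172220145 for Casq1 (minus), chr19:6384158-6384407 for Pygm (plus) and chr1:134289754-134290003 for Myog (plus). Capitals mark E-boxes, CANNTG, the letters bound by MyoD-family factors and many other factors, and matches to the MEF2 motif.
Myh4: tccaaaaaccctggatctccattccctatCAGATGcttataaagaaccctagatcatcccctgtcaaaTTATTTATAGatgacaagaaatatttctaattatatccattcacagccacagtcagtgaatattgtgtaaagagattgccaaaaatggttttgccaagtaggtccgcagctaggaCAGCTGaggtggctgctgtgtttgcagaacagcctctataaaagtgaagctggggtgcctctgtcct
Casq1: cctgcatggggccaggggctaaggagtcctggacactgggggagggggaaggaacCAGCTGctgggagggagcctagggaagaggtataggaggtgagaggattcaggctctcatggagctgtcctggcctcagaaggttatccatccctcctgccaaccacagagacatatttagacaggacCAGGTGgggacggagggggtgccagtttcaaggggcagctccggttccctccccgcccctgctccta
Pygm: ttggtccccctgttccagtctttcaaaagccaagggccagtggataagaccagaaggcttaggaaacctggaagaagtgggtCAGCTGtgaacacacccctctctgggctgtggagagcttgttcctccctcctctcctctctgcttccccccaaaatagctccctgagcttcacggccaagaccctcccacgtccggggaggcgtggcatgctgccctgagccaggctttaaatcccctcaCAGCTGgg
Myog: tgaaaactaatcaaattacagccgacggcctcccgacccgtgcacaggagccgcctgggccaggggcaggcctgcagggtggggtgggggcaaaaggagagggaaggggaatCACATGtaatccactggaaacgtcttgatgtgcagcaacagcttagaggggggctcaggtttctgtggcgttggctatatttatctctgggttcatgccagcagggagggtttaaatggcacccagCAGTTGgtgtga

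In Myh4, the E-box CAGCTG began 67 bases before the start, a second E-box began 221 bases before it, and the MEF2 match began 182 bases before it. Pygm held CAGCTG at 168 and at 8 bases before the start, and Casq1 held CAGCTG at 195 bases and another E-box at 67 bases. The Myog window held E-boxes at 138 and 12 bases, neither of them CAGCTG. The promoter table has entries for 34 of the 44 members, with 41 starts. CANNTG was found in 85.4% of these starts, against 66.2% of all 32851 starts, and CAGCTG, which is 1 form of CANNTG and reads the same on both strands, was found in 46.3% against 13.0%. A MEF2 match on either strand was found in 14.6% against 2.92%. By genes, CAGCTG was present for 4 of the 9 fast isoforms with an entry and for 4 of the 8 slow isoforms with an entry. A match is a description of the letters and not of binding, which was not measured. Actn3, Tnnt3, Tnni2, Neb, Myoz1, Tcap, Atp2a2, Myod1, Myf6 and Fbxo32 have no entry in the table.

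Thick filament genes code for the myosin motor and the proteins that bind it. Myh4, the heavy chain of type IIB fibres (chromosome 11, 67051314 to 67073949, plus strand, mm9), had WT levels of 2184 and 1841 FPKM and KO levels of 947 and 694 FPKM. The KO values were both under the WT values, the KO mean was 40.8% of the WT mean, and the log2 difference was -1.30 ± 0.29 (SE), with an unadjusted p of 0.00611 and an adjusted p of 0.248 (limma). Mybpc2, fast myosin-binding protein C (chromosome 7, 51757069 to 51780039, minus strand), was at 749 and 776 FPKM in WT skin and at 373 and 259 FPKM in KO skin. Its log2 difference of -1.29 ± 0.28 (SE) carried the same adjusted p of 0.248, again with no overlap. The other fast heavy chains behaved differently in the 2 KO libraries. Myh1, the type IIX chain, had WT levels of 851 and 707 FPKM and KO levels of 785 and 299 FPKM, and Myh2, the type IIA chain, was at 217 and 174 FPKM in WT skin and at 222 and 65.2 FPKM in KO skin. For both, KO replicate 1 lay within or above the WT values and only KO replicate 2 lay below. Reads from these chains can be shared, since 18.9% of the 50-base windows of the Myh4 transcript, 26.7% of those of Myh1 and 26.9% of those of Myh2 also occur in another gene.

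The fast light chains did not pass the unadjusted limits. Mylpf, the regulatory light chain of fast fibres, gave 3144 and 2959 FPKM in WT skin, against 1762 and 2492 FPKM in KO skin. The groups did not overlap, and the log2 difference was -0.54 ± 0.30 (SE). Myl1, the fast essential light chain, gave 2261 and 1836 FPKM in WT skin, against 1169 and 1984 FPKM in KO skin, where KO replicate 2 lay between the WT libraries.

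Of the 4 slow thick filament genes, Myl2, Myl3 and Myh7 were scarce and highest in KO replicate 1. Myl2, the regulatory light chain of slow and ventricular muscle, had WT levels of 4.76 and 1.34 FPKM and KO levels of 21.4 and 5.82 FPKM. Myl3, the matching essential light chain, was at 1.07 and 1.35 FPKM in WT skin and at 9.82 and 1.45 FPKM in KO skin. These were the only members whose KO libraries both lay above both WT libraries, with log2 differences of 1.75 ± 0.71 and 1.22 ± 0.71 (SE) and adjusted p of 0.298 and 0.401 (limma). In KO replicate 2 alone, the differences from the WT mean were 0.89 in Myl2 and 0.15 in Myl3. In Myl3, KO replicate 2 was barely above the nearer WT library, at 1.45 against 1.35 FPKM. Myh7, the slow heavy chain, did not reach the limit for testing, at 0.858 and 0.287 FPKM in WT skin, against 6.62 and 0.808 FPKM in KO skin. Only KO replicate 1 was high, at about 566 fragments against about 25.4 to 93.1 in the others, and 22.2% of the windows of Myh7 are shared with the cardiac gene Myh6. Mybpc1, slow myosin-binding protein C, was the abundant slow member, with 319 and 262 FPKM in WT skin, against 256 and 138 FPKM in KO skin. Its log2 difference of -0.62 ± 0.37 (SE) was -0.18 in KO replicate 1 and -1.07 in KO replicate 2.

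Heart muscle shares several slow isoforms, and its own genes were mostly low. Myh6, Nppa, Mybpc3 and Myl7 were all below 0.6 FPKM in every library, and Nppa and Myl7 were each listed at 0 in 1 library of each group. Tnni3, cardiac troponin I, gave 2.82 and 2.92 FPKM in WT skin, against 3.84 and 5.13 FPKM in KO skin. Myl4, an atrial light chain that developing skeletal muscle also uses, had WT levels of 169 and 114 FPKM and KO levels of 63.1 and 41.0 FPKM, a log2 difference of -1.43 ± 0.34 (SE) with an adjusted p of 0.248 (limma).

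Thin filament genes carry the actin track and its calcium switch. All 10 had a negative fitted difference (41.4% of all genes tested), with a median of -0.43. Of them, 0 passed the unadjusted limits, against 4.14% of all genes in that direction. Acta1 was at 6710 and 7681 FPKM in WT skin and at 5029 and 3728 FPKM in KO skin. The groups did not overlap, and the log2 difference was -0.73 ± 0.30 (SE). Nebulin (Neb), the ruler of the thin filament, had WT levels of 70.8 and 49.6 FPKM and KO levels of 44.7 and 34.6 FPKM, a difference of -0.58 ± 0.29 (SE). The tropomyosins, which block the myosin sites on actin at rest, differed by -0.36 ± 0.28 in Tpm1 and by -0.36 ± 0.29 in Tpm2 (SE), and the groups overlapped in Tpm2.

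Troponin is made of a calcium sensor (C), an inhibitor (I) and a tropomyosin anchor (T), each with a fast and a slow gene. The fast genes were 3 of the most abundant transcripts, and KO replicate 1 was lowest in all of them. Tnnc2 (fast C) gave 3629 and 3498 FPKM in WT skin, against 2421 and 2951 FPKM in KO skin, a difference of -0.41 ± 0.27 (SE). Tnni2 (fast I) had WT levels of 3148 and 2925 FPKM and KO levels of 1981 and 2728 FPKM, a difference of -0.38 ± 0.29 (SE). Tnnt3 (fast T) was at 3509 and 2269 FPKM in WT skin and at 2226 and 2840.0 FPKM in KO skin, with KO replicate 2 between the WT libraries. The slow genes had the opposite order of KO libraries, with KO replicate 2 lowest in all 3. Tnnc1 (slow C) gave 116 and 125 FPKM in WT skin, against 90.1 and 27.7 FPKM in KO skin, a difference of -1.25 ± 0.57 (SE). Tnni1 (slow I) had WT levels of 68.8 and 55.8 FPKM and KO levels of 41.7 and 14.6 FPKM, a difference of -1.29 ± 0.51 (SE). Tnnt1 (slow T) was at 62.8 and 39.7 FPKM in WT skin and at 79.0 and 16.6 FPKM in KO skin, so its KO libraries lay on either side of WT. With KO replicate 2 left out, the differences of Tnnc1 and Tnni1 were -0.42 and -0.56, and with KO replicate 1 left out they were -2.08 and -2.01.

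Z-disc genes anchor the thin filaments and link neighbouring sarcomeres. Actn3, the alpha-actinin of fast fibres (chromosome 19, 4861216 to 4877909, minus strand, mm9), gave 1043 and 884 FPKM in WT skin, against 316 and 380.2 FPKM in KO skin. Both KO libraries were close together and far below WT, at 36.2% of the WT mean. The log2 difference was -1.47 ± 0.26 (SE), with an unadjusted p of 0.00222 and an adjusted p of 0.248 (limma). Actn2, the alpha-actinin present in all striated fibres, had WT levels of 349 and 389 FPKM and KO levels of 328 and 113 FPKM. Its groups did not overlap, but KO replicate 1 was near the WT level and KO replicate 2 was far below it.

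The remaining Z-disc and titin genes were mostly lower, by amounts that differed between the KO libraries. Myoz1, a fast-fibre calsarcin that holds calcineurin at the Z-disc, differed by -0.75 ± 0.32 (SE), and its slow relative Myoz2 by 0.09 ± 0.40 (SE). Myoz2 was at 112 and 75.8 FPKM in WT skin and at 135 and 72.2 FPKM in KO skin, so its WT values lay inside the KO range, and its difference was -0.03 under median-ratio scaling. Ldb3, a Z-disc scaffold, differed by -0.86 ± 0.30 (SE) and the desmin gene Des, the muscle intermediate filament, by -0.63 ± 0.29 (SE). Tcap (telethonin) differed by -0.61 ± 0.26, Xirp2, an actin-binding protein of damaged and loaded muscle, by -0.45 ± 0.23, and Ttn (titin) by -0.73 ± 0.36 (SE). The groups of these 5 genes did not overlap. Against the WT mean, KO replicate 1 and KO replicate 2 stood at -0.34 and -1.12 in Ttn, -0.57 and -1.15 in Ldb3, and -0.37 and -0.90 in Des. Myoz1 had the opposite order, at -1.02 and -0.47.

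Calcium handling genes had a median of -1.13, at -0.80 in KO replicate 1 and -1.25 in KO replicate 2, and 4 of 6 passed the unadjusted limits, against 4.14% of all genes tested in that direction. Atp2a1, the calcium pump SERCA1 of fast fibres (chromosome 7, 133589374 to 133606587, minus strand, mm9), was at 3171 and 2779.5 FPKM in WT skin and at 1755 and 952 FPKM in KO skin. The log2 difference was -1.20 ± 0.38 (SE), with an adjusted p of 0.254 (limma), and it was -0.76 without KO replicate 2. Casq1, the calcium store protein calsequestrin (chromosome 1, 174140025 to 174150026, minus strand), gave 731 and 605 FPKM in WT skin, against 292 and 305 FPKM in KO skin. Like Actn3, it had KO libraries that were close to each other, and its difference was -1.15 ± 0.25 (SE) with an adjusted p of 0.248 (limma).

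Ryr1, the calcium release channel (chromosome 7, 29788359 to 29910170, minus strand), had WT levels of 113 and 126 FPKM and KO levels of 74.8 and 24.2 FPKM. Its difference was -1.46 ± 0.55 (SE), with an adjusted p of 0.282 (limma) and a wide gap between the KO libraries, being -0.67 when KO replicate 2 was left out and -2.26 when KO replicate 1 was. Cacna1s, the voltage sensor that opens Ryr1 (chromosome 1, 137949478 to 138016399, plus strand), was at 77.8 and 74.1 FPKM in WT skin and at 41.7 and 28.7 FPKM in KO skin, a difference of -1.11 ± 0.27 (SE). Atp2a2, the pump of slow fibres, heart and many other cells, had a positive fitted difference of 0.25 ± 0.30 (SE). It gave 42.1 and 32.6 FPKM in WT skin, against 53.5 and 36.8 FPKM in KO skin, with overlapping groups. Pvalb, the calcium buffer parvalbumin of the fastest fibres, had WT levels of 1761 and 885 FPKM and KO levels of 547 and 1401 FPKM, and both groups spread over a wide range.

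Energy genes had a median difference of -0.83. Pygm, muscle glycogen phosphorylase (chromosome 19, 6384408 to 6398464, plus strand, mm9), was at 997 and 906 FPKM in WT skin and at 485 and 328 FPKM in KO skin. The groups did not overlap and the difference was -1.25 ± 0.30 (SE), with an adjusted p of 0.248 (limma). Ckm, muscle creatine kinase, gave 4407 and 4157 FPKM in WT skin, against 2271 and 2738 FPKM in KO skin, a difference of -0.78 ± 0.27 (SE). Eno3, muscle enolase, had WT levels of 1537 and 1338 FPKM and KO levels of 731 and 840.0 FPKM, a difference of -0.87 ± 0.26 (SE). For these 3 genes the KO means were 42.7%, 58.5% and 54.6% of WT. Mb, the oxygen store myoglobin of oxidative fibres, was at 904 and 699 FPKM in WT skin and at 741 and 679 FPKM in KO skin, with overlapping groups and a KO mean at 88.6% of WT.

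The myogenic regulators are transcription factors that commit cells to muscle (Myod1), drive their differentiation (Myog) and act in mature fibres (Myf6). Myog (chromosome 1, 136186581 to 136189125, plus strand, mm9) gave 76.6 and 32.1 FPKM in WT skin, against 25.3 and 12.6 FPKM in KO skin. WT replicate 1 was far above the rest, the groups did not overlap, and the difference was -1.42 ± 0.53 (SE) with an adjusted p of 0.283 (limma). It was -0.81 without WT replicate 1, -2.04 without WT replicate 2, -1.90 without KO replicate 1 and -0.95 when KO replicate 2 was left out. Myod1 had WT levels of 21.5 and 13.6 FPKM and KO levels of 11.6 and 6.00 FPKM. Its difference of -0.95 ± 0.40 (SE) was -0.53 in KO replicate 1 and -1.37 in KO replicate 2. Myf6 was at 66.6 and 35.7 FPKM in WT skin and at 45.7 and 53.0 FPKM in KO skin, with both KO libraries between the WT libraries. Myog was above Myf6 in WT replicate 1 and below it in the other 3 libraries.

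Both ubiquitin ligases of muscle atrophy were measured. Trim63 (MuRF1), which marks thick filament proteins for breakdown, gave 111 and 94.3 FPKM in WT skin, against 58.1 and 45.3 FPKM in KO skin. Its groups did not overlap, and the difference of -0.98 ± 0.26 (SE) lay just inside the fold limit. Fbxo32 (atrogin-1) had WT levels of 26.6 and 12.0 FPKM and KO levels of 26.0 and 15.6 FPKM, with overlapping groups. By the limit of 1 on the absolute log2 difference, Trim63 at -0.98 and Cacna1s at -1.11 were the members nearest to either side among those with an unadjusted p under 0.05 (limma).

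The fast and slow isoform lists were described side by side. All 13 fast isoforms had a negative fitted difference, 4 of them (Actn3, Myh4, Mybpc2 and Atp2a1) past the unadjusted limits, and their median was -0.68. Over all genes tested, 41.4% had a negative difference and 4.14% passed these limits in that direction, against which these counts are read. Of the 8 slow isoforms tested, 4 were lower and 4 higher, 0 passed the limits, and their median was -0.17. The sign of the slow median depended on the library. It was 0.53 in KO replicate 1 and -0.71 in KO replicate 2, each against the WT mean, whereas the fast medians were -0.79 and -0.47. The difference between the lists was not tested. The 22 genes in neither list had a median of -0.75, with 20 lower and 5 past the limits, against the same shares of 41.4% and 4.14%.

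Summed over the lists, fast isoforms held 26348 and 22028 FPKM in WT skin, against 14791 and 17464 FPKM in KO skin. Slow isoforms held 728 and 594 FPKM in WT skin, against 692 and 314 FPKM in KO skin. The slow share of both sums was 2.69% and 2.63% in WT, 4.47% in KO replicate 1 and 1.76% in KO replicate 2. The WT libraries were close to each other, and the KO libraries lay on either side of them.

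**Figure D2:**
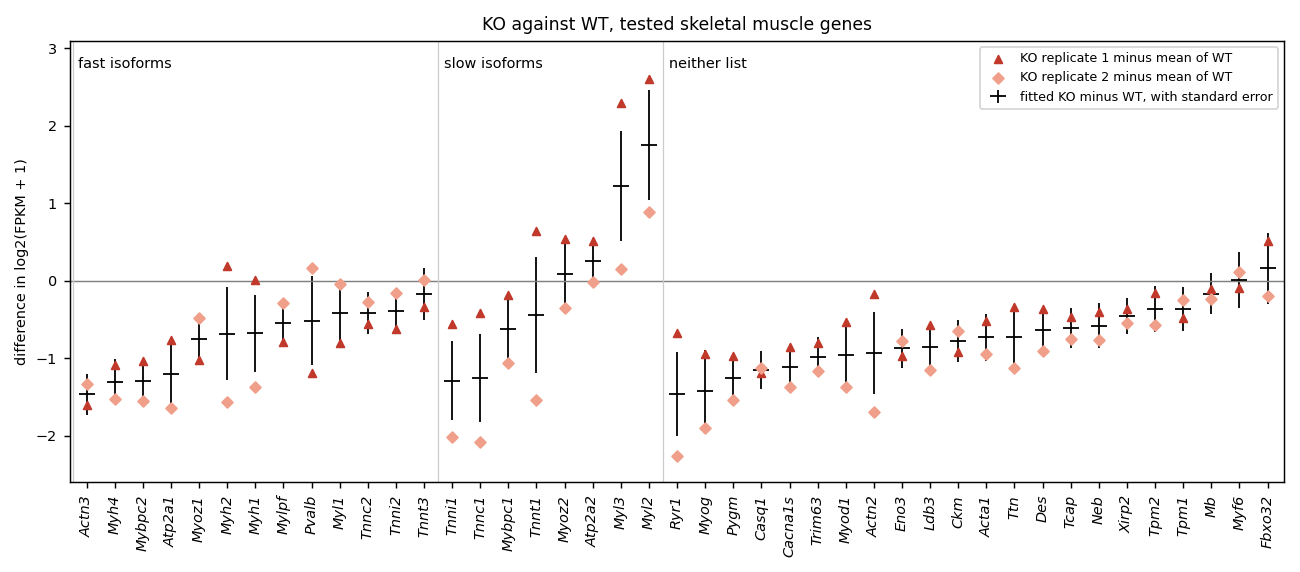
Difference from WT in log2(FPKM + 1) for the 43 tested members, split into fast isoforms, slow isoforms and neither list. Symbols give each KO library minus the WT mean, and bars give the fitted difference with its SE; KO replicate 2 lies below KO replicate 1 in all 8 slow isoforms and in 5 of the 13 fast isoforms.

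Ratios of paired isoforms within a library do not depend on its scaling. For troponin I, the ratio of the fast to the slow gene was 45.8 and 52.4 in WT, 47.6 in KO replicate 1 and 186 in KO replicate 2. The troponin C ratio was 31.3 and 27.9 in WT, 26.9 in KO replicate 1 and 106.5 in KO replicate 2, and the troponin T ratio was 55.9, 57.2, 28.2 and 171 in the same order. All 3 troponin ratios were thus highest in KO replicate 2, while in KO replicate 1 they were near or below WT. The calcium pump ratio, Atp2a1 to Atp2a2, was 75.3 and 85.2 in WT and 32.8 and 25.8 in KO, lower in both KO libraries. Atp2a2 is not specific to muscle fibres, and the part of other cells in this ratio was not tested. The calsarcin ratio, Myoz1 to Myoz2, was 6.06 and 6.54 in WT and 2.12 and 5.79 in KO. For myosin-binding protein C, Mybpc2 to Mybpc1, it was 2.35 and 2.96 in WT and 1.46 and 1.89 in KO. The ratios of the pump, calsarcin, myosin-binding protein C and regulatory light chain were below both WT values in both KO libraries, and the exact permutation test cannot go below 0.333 for any of them. The ratio of Actn3 to Actn2 was 2.99 and 2.27 in WT, 0.966 in KO replicate 1 and 3.37 in KO replicate 2, with no common direction.

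The make-up of the adult myosin heavy chains was read from Myh4, Myh1, Myh2 and Myh7. Myh4 held 67.1% and 67.6% of their summed FPKM in WT, 48.3% in KO replicate 1 and 65.5% in KO replicate 2. The mean was 67.4% ± 0.35 (SD, n = 2) in WT and 56.9% ± 12.2 (SD, n = 2) in KO, with an exact two-sided permutation p of 0.333, the smallest this design allows. The difference of -10.5 percentage points rested on KO replicate 1, and it was -1.86 without that library. Myh1 held 26.2% and 26.0% in WT and 40.0% and 28.3% in KO. Myh7 held at most 0.338% in any library.

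**Figure D3:**
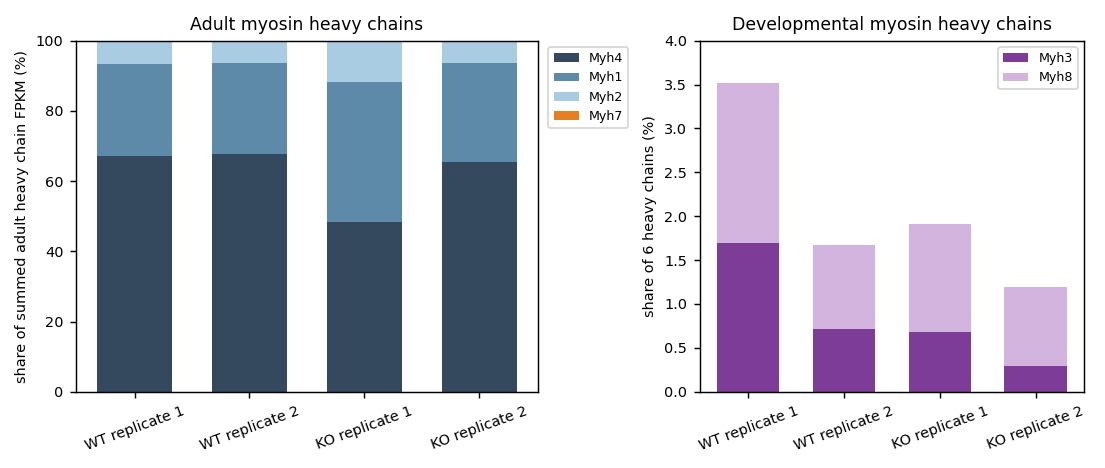
Left, share of each adult heavy chain in the summed FPKM of Myh4, Myh1, Myh2 and Myh7, by library, where Myh7 is too small to see. Right, share of the developmental chains Myh3 and Myh8 in the sum of all 6 heavy chains, 3.52% and 1.67% in WT and 1.92% and 1.20% in KO.

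The KO libraries were also compared with each other by transcript length. KO replicate 2 was below KO replicate 1 in 15 of 15 members with a transcript of at least 3000 bp, with a median difference of -0.58, whereas 2802 of 5547 genes of that length in the whole table were below, with a median of -0.01. Among members of 1200 to 3000 bp it was below in 7 of 14, with a median of -0.14, and among those under 1200 bp in 8 of 14, with a median of -0.21. The longest members, Ttn, Neb and Ryr1, differed between the KO libraries by -0.79, -0.36 and -1.59. Short members split by isoform, since Pvalb (1.36), Myl1 (0.76), Mylpf (0.50) and Tnni2 (0.46) were higher in KO replicate 2, while Tnnt1 (-2.18), Tnnc1 (-1.67) and Tnni1 (-1.45) were lower. Across the 43 members, Spearman's rho between length and this difference was -0.25, and across 11553 genes with a length it was -0.05. Between length and the KO minus WT difference it was -0.35 across the members and 0.06 across all genes. By length class, the members' median KO minus WT difference was -0.42 under 1200 bp, -0.83 at 1200 to 3000 bp and -0.73 at 3000 bp and over. Genes of 1 library share its depth and RNA quality, and the part of RNA quality in these values was not tested.

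**Figure D4:**
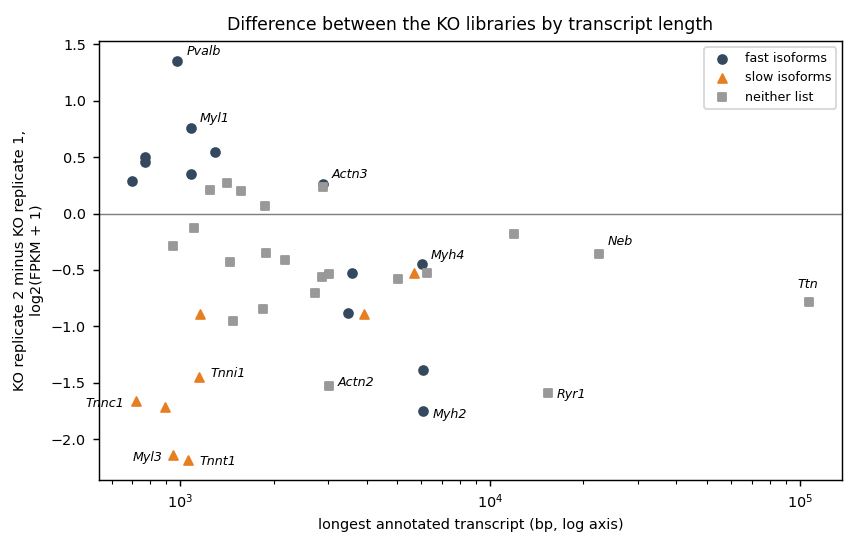
KO replicate 2 minus KO replicate 1 in log2(FPKM + 1), against the longest annotated transcript on a log axis, with 1 point per tested member. All 15 members of at least 3000 bp lie below 0, and short fast isoforms lie above short slow isoforms.

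Other genes of the sarcomere that were not members had the same direction. Of 21 such genes, 21 had a negative fitted difference (41.4% of all genes), 8 passed the unadjusted limits (4.14% of all genes), and the median was -0.75, at -0.54 in KO replicate 1 and -1.33 in KO replicate 2. Actc1, cardiac actin that developing skeletal muscle also makes, was at 204 and 124 FPKM in WT skin and at 55.6 and 25.4 FPKM in KO skin, a difference of -2.05 ± 0.47 (SE). Mybph, another myosin-binding protein, gave 138 and 226 FPKM in WT skin, against 49.2 and 36.4 FPKM in KO skin, a difference of -2.04 ± 0.34 (SE). Flnc, the filamin of the Z-disc and membrane, had WT levels of 138 and 310.1 FPKM and KO levels of 112 and 38.0 FPKM, a difference of -1.65 ± 0.64 (SE) that was -0.88 in KO replicate 1 and -2.41 in KO replicate 2.

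Genes for excitation and the calcium release unit were lower in 14 of 15 cases (41.4% of all genes), 5 past the unadjusted limits (4.14% of all genes), with a median of -0.81. Scn4a, the muscle sodium channel, was at 40.4 and 40.1 FPKM in WT skin and at 23.5 and 11.4 FPKM in KO skin, a difference of -1.25 ± 0.38 (SE). Clcn1, the chloride channel that steadies the fibre membrane, differed by -1.24 ± 0.38 (SE), and Jph2, which ties the sarcoplasmic reticulum to the surface membrane, by -1.15 ± 0.26 (SE). With KO replicate 2 left out, Scn4a and Clcn1 differed by -0.75 and -0.76. Sln, an inhibitor of the calcium pump, was the exception, with 761 and 608 FPKM in WT skin, against 786 and 621 FPKM in KO skin.

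Most genes of developing and regenerating muscle were also lower in KO. Of 14 such genes 12 could be tested, and all 12 had a negative fitted difference (41.4% of all genes tested). The unadjusted limits were passed by 7, and the median was -1.25, at -0.88 in KO replicate 1 and -1.81 in KO replicate 2. In 11 of these 12, the KO values were both under the WT values, while over all genes tested 20.5% had that order and 4.14% passed the limits in that direction. Mymx, which fuses myoblasts together with Mymk, gave 24.5 and 11.4 FPKM in WT skin, against 3.96 and 1.81 FPKM in KO skin, a difference of -2.25 ± 0.47 (SE). Mymk had WT levels of 47.0 and 20.9 FPKM and KO levels of 12.5 and 3.03 FPKM, a difference of -2.14 ± 0.69 (SE). Myh3, the embryonic heavy chain, was at 57.3 and 19.6 FPKM in WT skin and at 13.6 and 3.13 FPKM in KO skin, a difference of -2.16 ± 0.77 (SE). The adjusted p of these 3 genes were 0.248, 0.258 and 0.276 (limma), and with KO replicate 2 left out the differences of Mymk and Myh3 were -1.27 and -1.25. In all 3, WT replicate 1 was highest and KO replicate 2 lowest, which was also the order of Myog. Chrng, the fetal subunit of the acetylcholine receptor, gave 12.8 and 7.87 FPKM in WT skin, against 3.23 and 1.46 FPKM in KO skin, a difference of -1.78 ± 0.39 (SE). The satellite cell gene Pax7 was under the limit for testing, at 1.19 and 0.572 FPKM in WT skin, against 0.429 and 0.0534 FPKM in KO skin. Pax3, another transcription factor of muscle precursors, was under that limit too and had the opposite order, with WT levels of 0.166 and 0.0409 FPKM and KO levels of 0.788 and 0.183 FPKM.

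**Figure D5:**
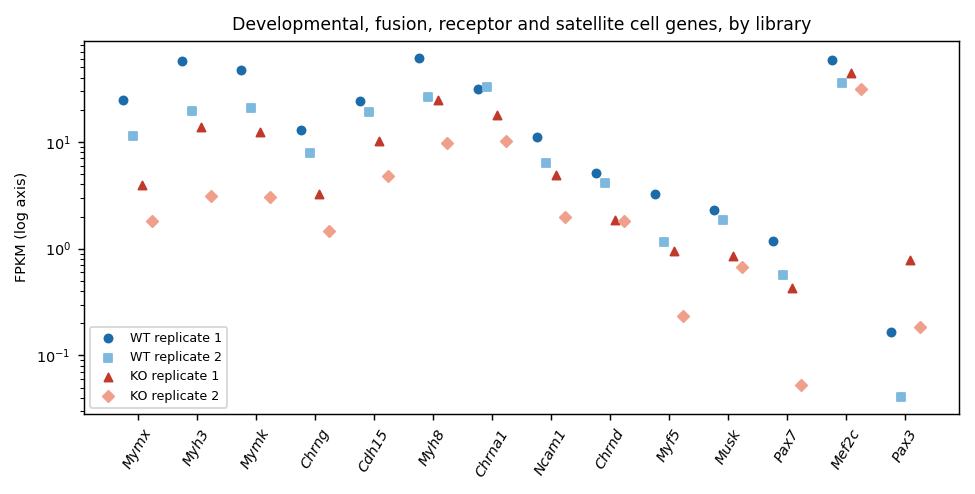
FPKM on a log axis of 14 genes of developing muscle, myoblast fusion, the neuromuscular junction and satellite cells, with 1 point per library. The KO points both lie under the WT points in 11 of the 12 tested genes, and Mef2c is the exception.

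Markers of other cell types in the same biopsies did not all follow the muscle genes. Smooth muscle markers summed to 183 and 188 FPKM in WT skin, against 172 and 59.8 FPKM in KO skin. Of these 8 genes, 4 had a negative fitted difference (41.4% of all genes) and 4 a positive one, with a median of -0.02. The 1 past the unadjusted limits, Synpo2, was lower (4.14% of all genes). Keratinocyte markers had a positive fitted difference in 7 of 7 cases, while 41.4% of all genes had a negative one. Of these markers, 5 were past the limits (6.16% of all genes). They summed to 3661 and 2876 FPKM in WT skin, against 8114 and 5754.5 FPKM in KO skin. Macrophage markers were lower in 7 of 7 cases (41.4% of all genes), 5 past the limits (4.14%), and summed to 1713 and 1625 FPKM in WT skin, against 639 and 76.0 FPKM in KO skin. By these sums, KO skin was above WT in keratinocyte markers and below WT in macrophage markers, but Krt1 and Krt10 were below both WT libraries in KO replicate 2. Schwann cell markers summed to 285 and 262 FPKM in WT skin, against 314 and 75.8 FPKM in KO skin, and adipocyte markers to 1880.4 and 5216 FPKM in WT skin, against 2334 and 251 FPKM in KO skin. Hair follicle markers summed to 8.00 and 0.707 FPKM in WT skin, against 306 and 7.02 FPKM in KO skin, with 4 of 7 at 0 in WT replicate 2 and 1 of 7 at 0 in KO replicate 2. In the other lists named here no marker was at 0. The part of tissue make-up in the muscle values was not tested.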

How the data were processed

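RNA-seq of BLM-treated skin was analysed in 2 WT and 2 KO libraries, grouped by their labels. The paper's methods describe HISAT2 alignment to mm9, featureCounts and DESeq2, and the submitters' processing notes list HISAT2 version 2.0.1 and StringTie version 2.0.6. The deposited table is labelled as raw gene counts, but 99.993% of its values above 0 are not whole. In low genes the values rose in approximate steps that scaled with transcript length, so they were read as FPKM that the authors had divided by length and depth. The program that made them is not given in the sources used here, the depths are estimates, and no count model was run.

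Values were transformed to log2(FPKM + 1). Fits used limma (version 3.58.1, under R version 4.3.3) on the 13027 genes that reached 1 FPKM or more in 2 or more libraries, with a single term for genotype, a mean-variance trend and Benjamini-Hochberg adjustment over all of them. Differences are KO minus WT, understate changes of low genes, and are given with their SE. Called genes had an absolute log2 difference above 1 with adjusted p under 0.05, and counts at an unadjusted p under 0.05 with the same fold limit are given as descriptions. The fit was tested on simulated data. No source says that the libraries of a group are separate animals beyond their replicate numbers, so p-values measure the spread between these libraries.

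The members and all gene lists were chosen with earlier results of these data known. Every member is named, and of each further list at most 3 genes by size of the log2 difference, besides Sln, Chrng, Pax7, Pax3, Mef2c, Cox6a2, Cox8b, Cox7a1, Krt1, Krt10 and the heart genes, which were named after their values were seen. Loci are on mm9, and lengths, windows and overlaps come from the GENCODE annotation of that build. The strand of counting is not given in the sources used here, and Atp2a1, Casq1, Ckm, Des, Fbxo32, Mb, Myh1, Myh2, Myl2, Ryr1, Tnnc2, Ttn and Xirp2 overlap exons on the opposite strand. The alternatives were other filters, pseudocounts and scalings, no trend, the replicate number as a block and leaving out each library, and, chosen after seeing the data, a block with crossed numbers and values freed of their trend on transcript length.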

Additional observations from a re-analysis of the deposited data

How the results depend on the processing

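With 2 libraries a group, single libraries decided most counts. Leaving out each library in turn, the genes passing the adjusted threshold numbered 0 to 1920 (31 when KO replicate 2 was left out, 1920 when KO replicate 1 was), and the members passing it 0 to 16. Members lower at the unadjusted threshold numbered 2 to 20, and members higher 0 to 2. Over all genes tested, the counts at the unadjusted threshold moved between these fits too. Like the members' count, the count of all genes lower was largest without KO replicate 1. The median of the fast isoforms ran from -0.84 to -0.47, and it was -0.81 with the length trend removed. The median of the slow isoforms, -0.17, had no stable sign, at 0.13 without WT replicate 1, 0.53 without KO replicate 2, -0.71 without KO replicate 1 and 0.09 with filters that let in Myh7. The Myh4 share difference ran from -19.1 to -1.86 percentage points, and it was -9.57 with Myh3 and Myh8 in the sum.

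Same-numbered libraries were not treated as pairs in the main fit. Over 13027 genes their deviations from the group means had r = -0.202, which with 2 libraries a group cannot show whether they were handled in pairs. With the replicate block, 11 members were lower and 1 (Myl2) higher at the unadjusted threshold, against 686 and 907 of all 13027 genes tested. With the crossed pairing, 8 members were lower and 0 higher. No filter left 6 members lower, against 434 of 19663 genes. Under median-ratio scaling the whole table had 707 genes lower and 630.0 higher at that threshold, against 539 and 802 without it.

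Direction held under all 14 alternatives for 33 of 43 members. Myoz2 turned to -0.0251 with median-ratio and -0.0234 with upper-quartile scaling, and Myf6 to -0.11, -0.10 and, with the length trend removed, -0.0455. Leaving out a library turned the sign of Atp2a2 (-0.00913 to 0.52), Fbxo32 (-0.38 to 0.70), Mb (-0.35 to 0.0208), Myf6 (-0.43 to 0.45), Myh1 (-1.37 to 0.0158), Myh2 (-1.56 to 0.19), Myoz2 (-0.35 to 0.54), Pvalb (-1.19 to 0.17), Tnnt1 (-1.53 to 0.65) and Tnnt3 (-0.48 to 0.15). The cause of these changes was not tested. Depth limits Myl2, Myl3 and Myh7, which rest on about 16.9 to 566 fragments a library.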

Other observations

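Further muscle genes of energy supply, which are not members, were lower in KO in 11 of 12 cases (41.4% of all genes tested), 1 past the unadjusted limits (4.14% of all genes), with a median log2 difference of -0.72. Ampd1, the muscle AMP deaminase, gave 119.9 and 87.3 FPKM in WT skin, against 38.0 and 49.1 FPKM in KO skin, a difference of -1.22 ± 0.28 (SE) with an adjusted p of 0.248 (limma). Pfkm, muscle phosphofructokinase, had WT levels of 516 and 523 FPKM and KO levels of 312 and 219 FPKM, and Gys1, muscle glycogen synthase, was at 112 and 116 FPKM in WT skin, against 81.5 and 41.3 FPKM in KO skin. In these 3 genes the KO values were both under the WT values. Of 3 mitochondrial subunits, named after their values were seen, Cox6a2 had WT levels of 989.8 and 895 FPKM and KO levels of 684 and 652 FPKM, without overlap. Cox8b and Cox7a1 had overlapping groups, at 1092 and 819 FPKM against 756 and 897 FPKM, and at 446 and 255 FPKM against 199.6 and 288 FPKM.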
